A study of Mus musculus with 4 samples.

Results

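Transcripts of 6 blood transcription factors and 3 embryonic globins were followed through 4 mouse cell populations on the way from mesoderm to heart muscle. The 9 genes were Tal1, Lyl1, Gata1, Gata2, Klf1 and Runx1 among the regulators and Hba-x, Hbb-bh1 and Hbb-y among the globins. They were found on the arrays by their RefSeq mRNA identifiers, and all 9 identifiers were present, with 10 probes in all, among 33226 identifiers. Hbb-y was measured by a pair of probes and every other gene by 1. On RefSeq's GRCm38.p6 annotation the beta-like globins Hbb-bh1 (chr7:103841638-103843162) and Hbb-y (chr7:103851754-103853207) lie close together on chromosome 7 and Hba-x lies at chr11:32276600-32278116. The regulators lie at chr4:115056426-115071755 for Tal1, chr8:84701423-84704716 for Lyl1, chrX:7959260-7976663 for Gata1, chr6:88193891-88207032 for Gata2, chr8:84901982-84905291 for Klf1 and chr16:92601466-92826074 for Runx1.

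All cells came from mouse pluripotent stem cells that differentiated in medium without leukemia inhibitory factor and were sorted by flow cytometry. Flk1+ MPCs are mesodermal precursor cells that carry the VEGF receptor Flk1, taken at day 4.5 and not described as treated. PCBs are PDGFRα+ cardioblasts taken at day 5.5 after CsAYTE, a mixture of Trolox, an antioxidant, Cyclosporin A, EW7197, which blocks ALK5, and Y27632, which blocks ROCK. sfPCBs are cardioblasts of the same day that formed spontaneously without CsAYTE, and the solvent DMSO served as the vehicle control. M+CMs are cells sorted at day 10.5 for αMHC, the heart muscle myosin, and their label does not say whether they had received CsAYTE. The study describes M+CMs as heart muscle cells that differentiated from PCBs. In the study's methods the reporter was a GFP driven by the αMHC promoter, and Flk1+ MPCs were cultured further on growth-arrested OP9 stromal cells, a mouse feeder line. The methods name the stem cell lines EMG7, which carries the reporter, and E14Tg2a, whereas the array labels give neither the line nor the feeder. There was 1 array per population, so no replicates and no test between populations were available.

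Blood and blood vessels arise from Flk1+ mesoderm, which also gives rise to heart muscle. Tal1 and Lyl1 are related basic helix-loop-helix factors that act with Gata1 or Gata2 and the bridging proteins Lmo2 and Ldb1 at blood genes, and Tal1 is required for all blood formation. Runx1 is required for definitive blood stem cells, Gata1 and Klf1 for red cell maturation, and the first red cells of the yolk sac fill themselves with the zeta globin Hba-x and the embryonic beta-like globins Hbb-bh1 and Hbb-y. In bulk RNA, fewer cells of a type and less RNA per cell cannot be told apart.

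Levels are given as scaled signals, the software's background-subtracted spot intensities after each array was brought to the same 75th percentile, and they compare a gene across populations but not genes with each other. A signal was called detected when the software marked it well above background, which held for 73.3% to 76.2% of the spots of each array. The software's error of a detected member's signal lay between 0.144 and 0.293 on the log2 scale. At the brightest probe, 8 of the 9 genes were detected in Flk1+ MPCs, all 9 at day 5.5 in either population and 7 in M+CMs. The error covers the spot and its background only, and the number of arrays limits the precision.

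The sort labels were checked against their markers. Pdgfra, the receptor used to sort cardioblasts, read 7237 in Flk1+ MPCs, 3647 in sfPCBs, then 9136 in PCBs and 918 in M+CMs. The pair of probes for Kdr, which encodes Flk1, disagreed. One read 54864 in Flk1+ MPCs, 4559 in sfPCBs and 768 in PCBs, while the other read 11263, 6661 and 7272. Myh6, which encodes αMHC, read 116 in Flk1+ MPCs, 128 in sfPCBs, but 82857 in PCBs and 478627 in M+CMs. Thus the cells labelled sfPCB had the lower Pdgfra signal of the day 5.5 pair and a Myh6 signal close to that of the Flk1+ MPCs.

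Tal1 and Runx1 were high in Flk1+ MPCs and sfPCBs and low in PCBs and M+CMs. The scaled signal of Tal1 (NM_011527) was 612 in Flk1+ MPCs and 480.2 in sfPCBs, against 56.2 in PCBs and 40.7 in M+CMs. Neighbours in that order differed by less than 2 errors at both ends, between Flk1+ MPCs and sfPCBs and between PCBs and M+CMs, and the large step lay between sfPCBs and PCBs. Runx1 (NM_009821) read 998 in Flk1+ MPCs and 876 in sfPCBs, against 106 in PCBs and 25.0 in M+CMs. Its Flk1+ MPC and sfPCB signals likewise lay within 2 errors of each other, while M+CMs were lower again than PCBs. A further probe, listed under another RefSeq identifier of Runx1 and so not among the 9, read 1412, 1709, 230.0 and 95.6 in the same order, with the same step between sfPCBs and PCBs.

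Lyl1 and Gata1 were highest in sfPCBs. Lyl1 (NM_008535) read 247 in Flk1+ MPCs, 548 in sfPCBs, then 145 in PCBs and 83.6 in M+CMs, and each neighbouring pair in this order of levels differed by more than 2 errors. Gata1 (NM_008089) read 48.1 in Flk1+ MPCs, 206 in sfPCBs and 53.5 in PCBs, and 10.6 in M+CMs, where it was not well above background. The PCB and Flk1+ MPC signals of Gata1 lay within 2 errors of each other, so sfPCBs stood apart from both.

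Gata2 (NM_008090), which is active in blood progenitors before Gata1, read 755 in Flk1+ MPCs, 642 in sfPCBs, then 434 in PCBs and 191 in M+CMs. It thus had the narrowest step between sfPCBs and PCBs of the regulators. Klf1 (NM_010635), the factor that switches on adult beta globin, read 34.1 in Flk1+ MPCs, 29.8 in sfPCBs, but 81.9 in PCBs and 39.5 in M+CMs. It was the one regulator with PCBs above sfPCBs, and the other 3 populations lay within 2 errors of their neighbours.

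**Figure D1:**
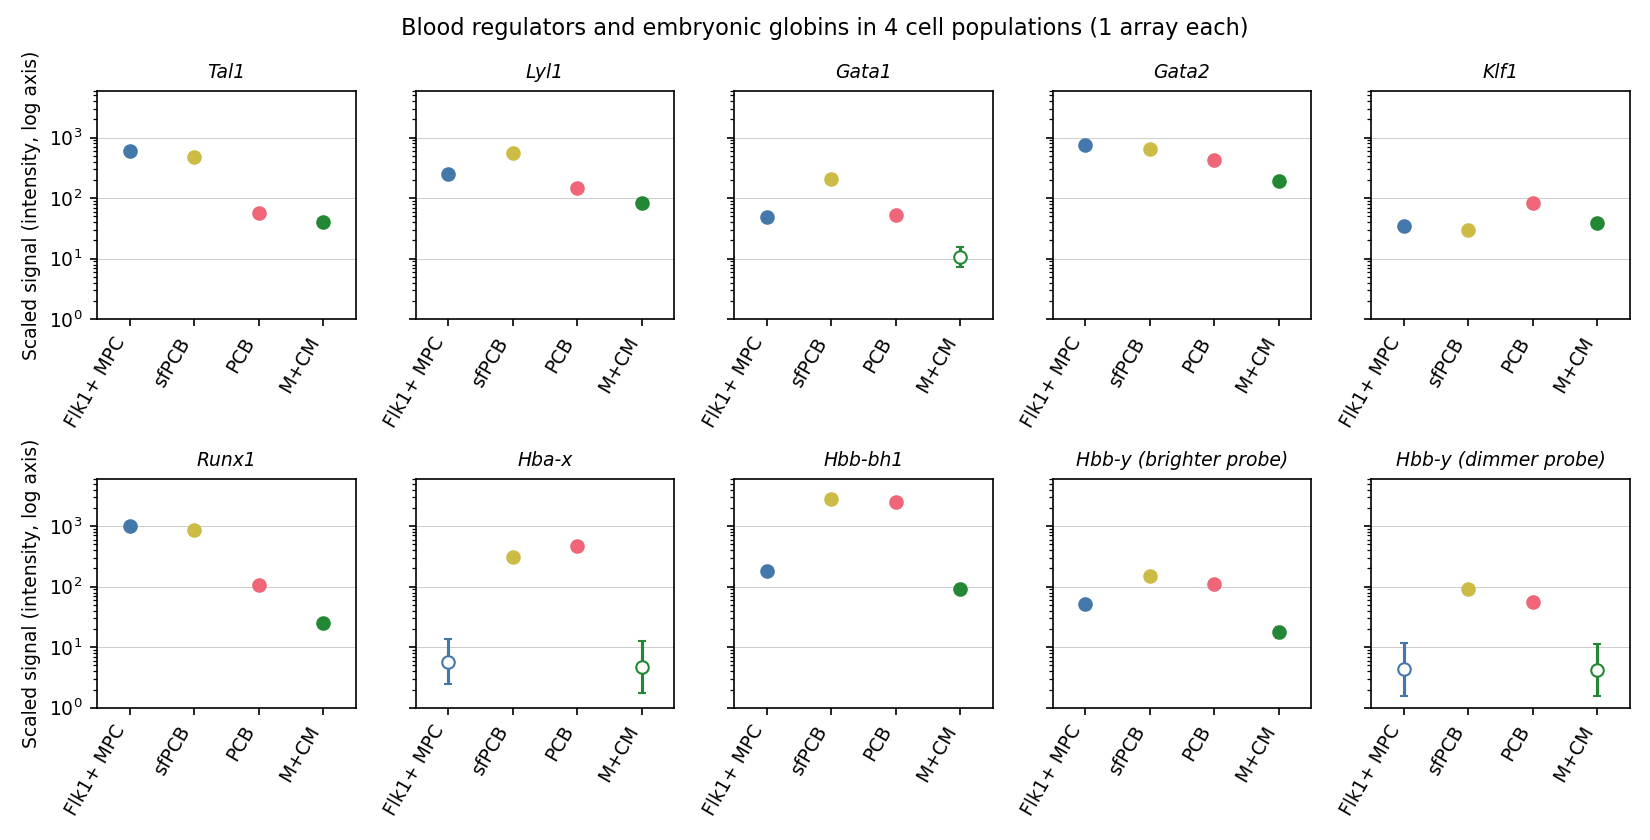
Scaled signal (background-subtracted intensity, log axis) of each probe of the 9 genes in the 4 populations, 1 array each; bars show the software's error, hidden where smaller than the point, and open points were not well above background. Tal1 and Runx1 drop between sfPCBs and PCBs, whereas the globin probes are high in both day 5.5 populations and low on either side.

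The embryonic globins were high at day 5.5 with and without CsAYTE and low before and after. Hba-x (NM_010405) read 308 in sfPCBs and 465 in PCBs, against 5.79 in Flk1+ MPCs and 4.65 in M+CMs, which were both not well above background. Hbb-bh1 (NM_008219) read 182 in Flk1+ MPCs, 2781 in sfPCBs, then 2525 in PCBs and 89.9 in M+CMs. Its sfPCB and PCB signals lay within 2 errors of each other. The brighter probe of Hbb-y (NM_008221) read 50.7 in Flk1+ MPCs, 147 in sfPCBs, then 110.0 in PCBs and 17.7 in M+CMs. Its dimmer probe read 91.8 in sfPCBs and 55.7 in PCBs and was not well above background in Flk1+ MPCs, at 4.29, or in M+CMs, at 4.17. Both Hbb-y probes therefore placed the day 5.5 populations above the other 2. Between sfPCBs and PCBs the brighter probe differed by less than 2 errors. The dimmer probe was lower in PCBs by more than 2 errors, at a log2 ratio of -0.72 with an error of 0.24.

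The stretches around the start sites of a few of these genes are shown because Hba-x and Hbb-y were higher at day 5.5 than at day 4.5, while Klf1 and Tal1 went opposite ways between PCBs and sfPCBs. They are also the 4 windows, of the 11 found for these genes, that hold a GATA hexamer, and were chosen with that known. They are RefSeq windows of build GRCm38.p6, with 250 bases before to 50 after the start, read 5′ to 3′ on the gene's strand. The array design was annotated on mm9, and no position was carried between the builds. Capitals mark the GATA hexamers, which GATA factors can bind and which here mean AGATAA or else AGATAG and the same with T as the first base (TGATAA or else TGATAG), and CACCC, which Klf1 can bind, each on either strand. Hba-x lies at chr11:32276350-32276649 on the plus strand, Hbb-y at chr7:103853158-103853457 on the minus strand, Klf1 at chr8:84901732-84902031 on the plus strand and Tal1, at the first of its 2 windows, at chr4:115056176-115056475 on the plus strand.
Hba-x: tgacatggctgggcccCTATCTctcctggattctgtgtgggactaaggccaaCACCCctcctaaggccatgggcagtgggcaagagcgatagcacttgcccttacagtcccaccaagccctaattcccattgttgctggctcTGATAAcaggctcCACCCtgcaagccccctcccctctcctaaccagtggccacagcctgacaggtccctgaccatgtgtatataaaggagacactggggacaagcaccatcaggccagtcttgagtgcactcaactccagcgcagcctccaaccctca
Hbb-y: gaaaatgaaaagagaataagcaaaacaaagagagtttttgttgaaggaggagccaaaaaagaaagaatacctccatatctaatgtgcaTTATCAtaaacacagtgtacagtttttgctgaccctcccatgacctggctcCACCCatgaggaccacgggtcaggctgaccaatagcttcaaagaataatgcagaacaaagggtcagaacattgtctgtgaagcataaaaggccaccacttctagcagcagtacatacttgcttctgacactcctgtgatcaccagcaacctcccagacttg
Klf1: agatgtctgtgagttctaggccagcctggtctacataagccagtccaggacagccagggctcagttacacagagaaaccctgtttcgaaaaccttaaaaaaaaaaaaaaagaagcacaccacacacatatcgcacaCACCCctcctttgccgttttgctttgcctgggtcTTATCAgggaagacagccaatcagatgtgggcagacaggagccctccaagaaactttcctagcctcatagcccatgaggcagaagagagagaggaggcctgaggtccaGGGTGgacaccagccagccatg
Tal1: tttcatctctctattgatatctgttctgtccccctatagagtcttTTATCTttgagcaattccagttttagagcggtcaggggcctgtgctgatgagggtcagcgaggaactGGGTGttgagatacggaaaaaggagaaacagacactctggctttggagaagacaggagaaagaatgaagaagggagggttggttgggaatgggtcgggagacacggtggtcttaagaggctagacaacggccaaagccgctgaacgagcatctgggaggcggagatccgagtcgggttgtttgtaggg
The windows of Runx1, Lyl1, Gata1 and Gata2 and the second window of Tal1 hold no hexamer. Hba-x has its hexamers at -234 and -108 and CACCC at -198 and -95, counted from the start site at 0 to the first base of the match. Hbb-y has a hexamer at -162 and CACCC at -111, and Klf1 a hexamer at -80 and CACCC at -114 and 28. Tal1 has a hexamer at -205 and CACCC at -138. Windows were found for 8 of the 9 genes, Hbb-bh1 being without one, and 4 of their 11 windows hold a hexamer and 8 hold CACCC. Over all 32851 windows of this length, 29.8% hold a hexamer and 57.5% hold CACCC. The matches are letters in a window and do not show that a factor binds there.

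The comparison of PCBs with sfPCBs addresses what CsAYTE-induced cells have and spontaneous ones lack. Regulators and globins parted here. Tal1 was 8.55-fold lower in PCBs, with a log2 ratio of -3.10 ± 0.23 (software error, here and below), and Runx1 was 8.27-fold lower at -3.05 ± 0.21. Lyl1 was lower by 3.78-fold and Gata1 by 3.85-fold. Klf1 was the exception among the regulators, 2.75-fold higher in PCBs at 1.46 ± 0.28. Gata2 lay at -0.57 ± 0.20, short of a 2-fold difference.

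The globins did not reach a 2-fold difference between the day 5.5 populations. The log2 ratio of PCBs to sfPCBs was 0.59 ± 0.21 for Hba-x, -0.14 ± 0.20 for Hbb-bh1 and -0.42 ± 0.21 for Hbb-y. Of the 9 genes, 1 was at least 2-fold higher in PCBs, where 6.19% of all identifiers tested were, and 4 were at least 2-fold lower, where 7.61% were. The median log2 ratio was -1.93 over the 6 regulators, -0.14 over the 3 globins and 0.02 over all 25219 identifiers tested. Among these identifiers, 0.968% had a lower ratio than Tal1 and 0.999% a lower ratio than Runx1, while Klf1 stood above 96.5% of them. With another background correction, normexp with an offset of 50 and quantile normalization, Klf1 fell to 0.52 and Gata1 to -0.97 and both left the 2-fold range, and an offset of 50 alone brought Klf1 to 0.72.

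**Figure D2:**
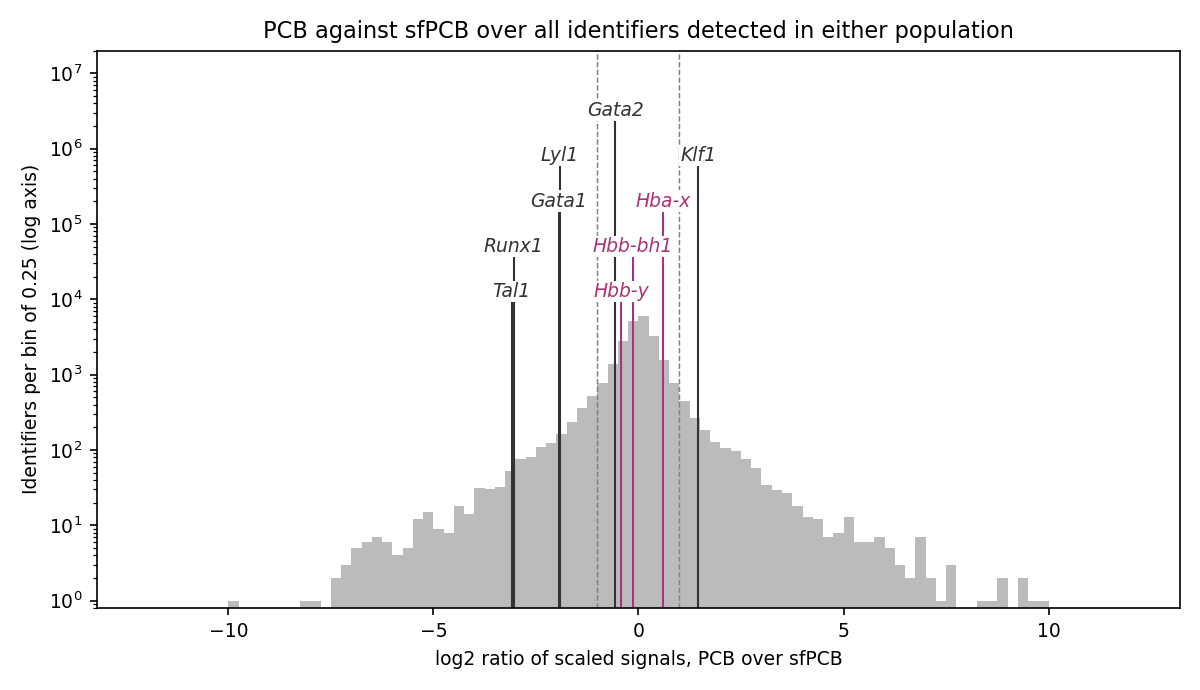
Histogram of the log2 ratio of scaled signals, PCB over sfPCB, for all 25219 identifiers detected in either population (counts per bin of 0.25, log axis), with vertical lines at the ratios of the 9 genes (regulators dark, globins purple; line height only separates the names) and dashed lines at 2-fold. Tal1 and Runx1 lie in the lower tail, and the globins lie within 2-fold.

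The comparison of each day 5.5 population with Flk1+ MPCs asks what the cells had gained or lost a day after the sort. Both comparisons share the 1 Flk1+ MPC array. In PCBs the 3 globins and Klf1 were higher and Tal1 and Runx1 lower. Hbb-bh1 stood 3.79 ± 0.21 log2 units above Flk1+ MPCs and Hbb-y 1.12 ± 0.23, and Hba-x was at least 29.2-fold higher, a bound set against the lowest signal that was well above background because it was undetected in Flk1+ MPCs. The dimmer Hbb-y probe, with the same limit, was at least 3.50-fold higher. Klf1 lay at 1.26 ± 0.27.

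Tal1 and Runx1 were lower in PCBs than in Flk1+ MPCs, at -3.45 ± 0.23 and -3.23 ± 0.21. The remaining regulators were within 2-fold, with Lyl1 at -0.77 ± 0.21, Gata1 at 0.15 ± 0.26 and Gata2 at -0.80 ± 0.20. In all, 4 of the 9 genes were at least 2-fold higher, against 12.8% of all identifiers tested, and 2 were at least 2-fold lower, against 12.1%. Over all 25840 identifiers the median was -0.20. Hbb-y and Klf1 came to 0.57 and 0.48 with normexp and to 0.67 and 0.65 with the offset alone, so their place in this count depends on the treatment of dim signals.

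In sfPCBs the globins were also higher than in Flk1+ MPCs, and the regulators were within 2-fold or higher. Hbb-bh1 lay at 3.93 ± 0.21 and Hbb-y at 1.54 ± 0.23, Hba-x was at least 19.3-fold higher and the dimmer Hbb-y probe at least 5.76-fold higher. Gata1 was higher by 2.10 ± 0.24 and Lyl1 by 1.15 ± 0.21. Tal1 at -0.35 ± 0.20, Gata2 at -0.23 ± 0.20, Klf1 at -0.19 ± 0.32 and Runx1 at -0.19 ± 0.20 were within 2 errors of no difference. Thus 5 of the 9 genes were at least 2-fold higher, against 13.2% of all identifiers, and 0 were at least 2-fold lower, against 12.6%. Normexp brought this count to 3, since Lyl1 fell to 0.75 and Hbb-y to 0.84.

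**Figure D3:**
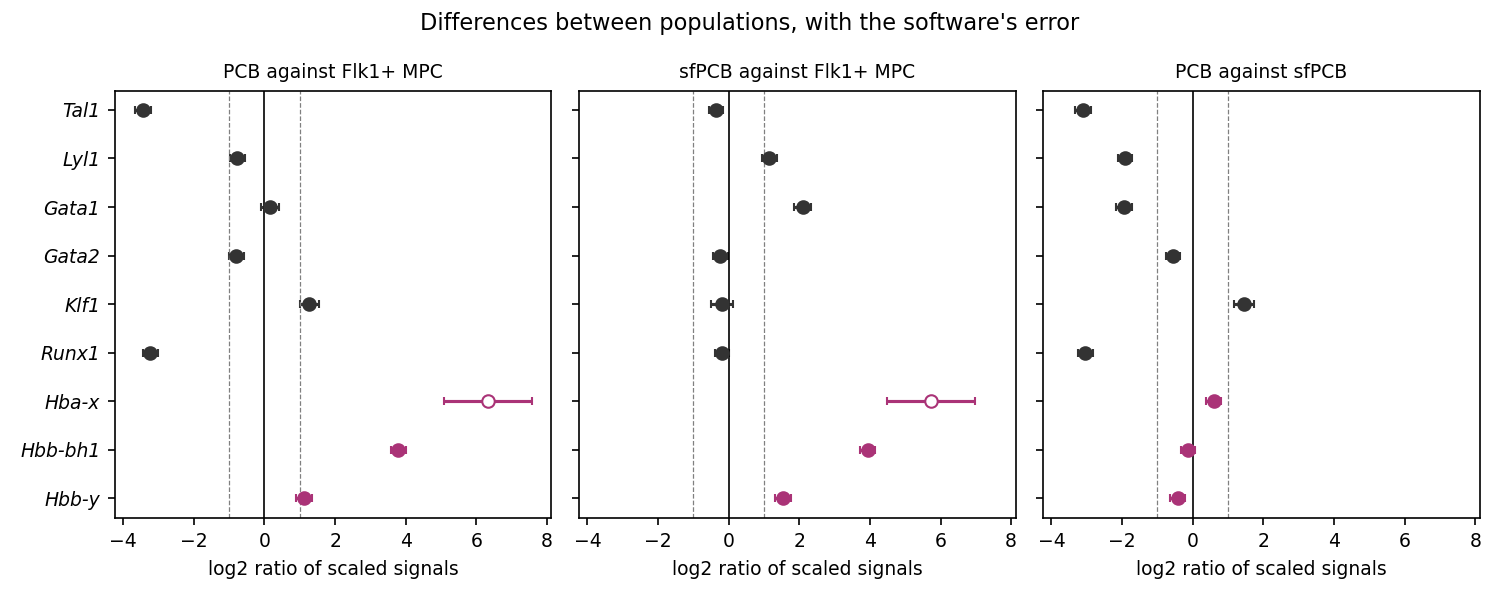
Log2 ratio of scaled signals for the 9 genes in the 3 comparisons among Flk1+ MPCs, sfPCBs and PCBs, with the software's error as bars; dashed lines mark 2-fold and open points have 1 of the arrays not well above background. Globins (purple) are high against Flk1+ MPCs in both day 5.5 populations, and Tal1 and Runx1 are low in PCBs against either of the others.

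In M+CMs no member stood at least 2-fold above any other population, and most were lower. Against PCBs, Hbb-bh1 was 28.1-fold lower at -4.81 ± 0.21, Hbb-y lay at -2.64 ± 0.33 and Hba-x was at least 30.4-fold lower. Among the regulators Runx1 was at -2.08 ± 0.28, Gata2 at -1.19 and Klf1 at -1.05, and Gata1 was at least 3.49-fold lower. Lyl1 at -0.79 and Tal1 at -0.46 remained within 2-fold. The count was 0 of 9 higher, against 20.6% of all identifiers tested, and 7 of 9 lower, against 15.3%. The count of lower genes came to 5 with normexp and to 5 with the offset of 50, where Gata1 lay at -0.65 and -0.77 and Klf1 at -0.57 and -0.56.

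Against sfPCBs, 0 of 9 were higher, where 23.3% of identifiers were, and 8 of 9 were lower, where 18.1% were. Runx1 was 35.0-fold and Hbb-bh1 30.9-fold lower, and Klf1, at 0.41, was the gene left out. The log2 ratio was -3.56 for Tal1, -2.71 for Lyl1, -1.75 for Gata2 and -3.06 for Hbb-y. Gata1 was at least 13.45-fold and Hba-x at least 20.1-fold lower. Against Flk1+ MPCs, 8 genes could be compared, since Hba-x was detected in neither. Of these, 0 were higher, where 22.3% of identifiers were, and 7 were lower, where 21.7% were. Runx1 was 39.9-fold and Tal1 15.0-fold lower in this comparison, whereas Hbb-bh1 lay at -1.02. Lyl1 was at -1.56, Gata2 at -1.99 and Hbb-y at -1.52, and Gata1 was at least 3.14-fold lower. That count came to 4 with normexp and to 4 with the offset of 50.

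Without scaling of the arrays the median of all identifiers moved by between -0.36 and 0.34 log2 units, depending on the comparison. The share of higher identifiers among those past 2-fold then moved from 51.5% to 61.8% for PCBs against Flk1+ MPCs, from 51.1% to 70.7% for sfPCBs against Flk1+ MPCs, from 44.9% to 35.1% for PCBs against sfPCBs, from 57.3% to 45.9% for M+CMs against PCBs and from 56.3% to 39.6% for M+CMs against sfPCBs. No member past 2-fold changed direction under any of the 9 alternatives tried, though those that change only detection leave every ratio as it was.

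Genes that work with these regulators were counted next. Of 25 partner transcription factors, 23 could be compared between PCBs and sfPCBs, of which 0 were at least 2-fold higher, where 6.19% of all identifiers were, and 7 were lower, where 7.61% were. Their median was -0.47, against 0.02 over all identifiers, and the shares and median over all are the same for the other lists in this comparison. Etv2, the ETS factor that directs Flk1+ mesoderm to blood and endothelium, read 11262 in sfPCBs and 153 in PCBs, and 23066 in Flk1+ MPCs. Fli1, an ETS factor of blood and endothelium, read 1879 in sfPCBs and 71.9 in PCBs, and 146 in Flk1+ MPCs. Fli1 thus was highest where Lyl1 and Gata1 were highest, and Etv2 had its largest step between sfPCBs and PCBs, as had Tal1 and Runx1. Lmo2, the bridging partner of Tal1, read 2518 in Flk1+ MPCs, 598 in sfPCBs, then 571 in PCBs and 3251 in M+CMs and so followed a different order from Tal1. Spi1 and Ikzf1, which act in leukocyte lineages, were not well above background on any array.

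Red cell effectors, unlike the embryonic globins, were divided at day 5.5. Of 30 listed, 28 were on the arrays. Against Flk1+ MPCs, PCBs had 7 at least 2-fold higher and 5 lower of 21 compared, with a median of -0.13, where 12.8% and 12.1% of all identifiers were higher and lower and their median was -0.20. Likewise sfPCBs had 3 higher and 5 lower of 19, with a median of -0.47, where the shares over all were 13.2% and 12.6% and the median -0.22. Ank1 and Hbb-b2, counted as higher in PCBs, were undetected in Flk1+ MPCs and at least 1.85-fold and 1.94-fold higher. In the sfPCB counts the bounds were at least 1.23-fold for Hbb-b2 and 1.73-fold for Hbb-bh2. The higher red cell effectors were led by other globins, although not every listed globin rose. Hbb-bh2 was among those lower in sfPCBs. Hbq1b read 46.4 in Flk1+ MPCs, 51.2 in sfPCBs, then 51.8 in PCBs and 69.4 in M+CMs. Hbb-bs and Hbq1a were not well above background on any array. Hba-a1 read 50.9 in Flk1+ MPCs, 292 in sfPCBs, then 391 in PCBs and 53.0 in M+CMs, and Hba-a2 read 198, 1129, 1330.4 and 172. These adult alpha globin genes are nearly identical copies, so their signals are uncertain as separate values, and hybridisation between globin probes was not tested.

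The other red cell genes differed among themselves. Fech, which inserts iron into heme, was among the 7 higher in PCBs. It read 3712 in Flk1+ MPCs, 6120 in sfPCBs, then 8279.8 in PCBs and 10855 in M+CMs, where it was highest. Alas2, the first enzyme of heme synthesis in red cells, read 82.8 in Flk1+ MPCs, 37.1 in sfPCBs and 29.7 in PCBs and was not well above background in M+CMs. Epor, the erythropoietin receptor, read 3087, 1082 and 989.9 in the first 3 populations and was highest in M+CMs, at 3523. Epb42 and Rhag, which encode red cell membrane proteins, were not well above background on any array. Between PCBs and sfPCBs, 3 of the 22 effectors compared were higher in PCBs and 0 lower, and all 3, Hbb-bt, Ank1 and Sptb, were undetected in sfPCBs.

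Early blood surface and megakaryocyte markers differed between the day 5.5 populations in the direction of the regulators. Of 13 compared, 9 were at least 2-fold lower in PCBs than in sfPCBs and 1, Itgb3, was higher, with a median of -1.32. Of the 9, Gp1ba, Vav1 and Ppbp were undetected in PCBs and at least 1.77-fold, 4.85-fold and 1.69-fold lower. Cd34, a surface protein of blood progenitors and endothelium, read 418 in Flk1+ MPCs, 7379 in sfPCBs and 72.8 in PCBs. Itga2b, the CD41 chain of the earliest blood cells, read 31.6, 102 and 27.7. Against Flk1+ MPCs, sfPCBs had 8 of 14 higher and 1 lower, where 13.2% and 12.6% of all identifiers were. In the same way PCBs had 3 of 13 higher and 5 lower, where 12.8% and 12.1% of all identifiers were.

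Markers of other cell types moved with the same comparisons. Of 17 endothelial markers compared, 0 were at least 2-fold higher and 15 were lower in PCBs than in sfPCBs, with a median of -3.76. Of the 18 endothelial genes listed, 16 were detected in Flk1+ MPCs, 17 in sfPCBs, but 10 in PCBs and 11 in M+CMs, and their summed signals were 45350, 44767, 21621 and 13335. With the other of the disagreeing Kdr probes, chosen after seeing the data, these sums were 88951, 42666, 15117 and 7963. Such sums mostly follow the brightest probes. Without this change of probe, the median signals of the list were 211, 442, 30.4 and 30.5. Cdh5, the adhesion protein that defines endothelium, read 36.2 in Flk1+ MPCs and 987 in sfPCBs and was not well above background in PCBs or M+CMs. The part of endothelial RNA in the lower Tal1, Runx1, Lyl1 and Gata1 signals of PCBs was not tested. All 16 cardiomyocyte markers were higher by 2-fold or more in PCBs against sfPCBs, with a median of 5.20. Of 12 mesoderm markers, 8 were lower and 1, Pdgfra, was higher in PCBs.

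The summed signal of the stromal feeder markers was highest in the samples in which the globins were high. All 14 were detected in sfPCBs, 13 in PCBs, 13 in M+CMs and 8 in Flk1+ MPCs, with summed signals of 388303, 208480, 31815 and 5460. A sum mostly follows the brightest probes of a list. The median signals were 11975, 1920, 373 and 81.2 in the same order. Against Flk1+ MPCs, 13 of 14 were at least 2-fold higher in sfPCBs and 12 of 13 in PCBs. Over all identifiers these shares were 13.2% and 12.8%. Thy1 went the other way, reading 1065 in Flk1+ MPCs, 102 in sfPCBs and 147 in PCBs. Between the day 5.5 populations, 8 of 14 were at least 2-fold lower in PCBs and 0 higher, with a median of -1.15. Of all identifiers, 7.61% were lower and 6.19% higher there. Postn, a matrix protein of fibroblasts, read 12883 in sfPCBs but was not well above background in PCBs or Flk1+ MPCs, while S100a4 read 137 in Flk1+ MPCs, 63025 in sfPCBs, then 45093 in PCBs and 352 in M+CMs. The part of feeder RNA in the globin signals was not tested.

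**Figure D4:**
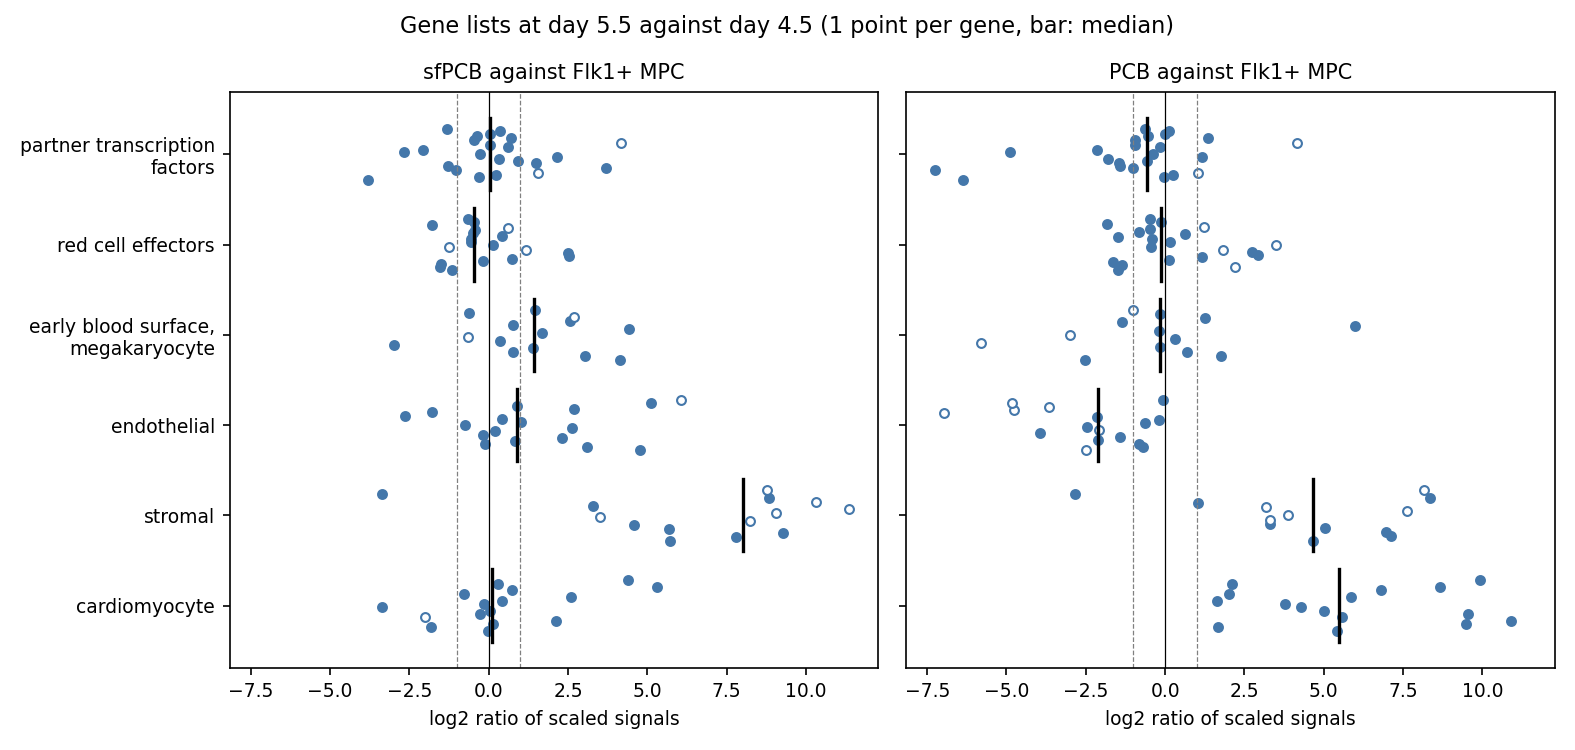
Log2 ratio of scaled signals against Flk1+ MPCs in sfPCBs (left) and PCBs (right) for 6 gene lists, 1 point per gene detected in either array of the comparison (open: detected in only 1), with black bars at the medians and dashed lines at 2-fold. Endothelial genes lie mostly below 0 in PCBs, the stromal genes shown other than Thy1 are high in both, and red cell effectors centre near 0.

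The nearest profiles to each member were found by the distance between log2 signals centred over the 4 populations, among 5615 genes that spanned at least 2 log2 units. With 4 points a near match is common, and the distances are given as descriptions. The nearest to Tal1 were Ggt1, Plet1 and Dmbx1, at distances of 0.13, 0.26 and 0.37. The nearest to Runx1 were Cntnap2, Pmp22 and Fst, at 0.19, 0.58 and 0.61. The nearest to Lyl1 was Arhgef16 at 0.08, to Gata1 Sult5a1 at 0.29, to Gata2 Foxp3 at 0.13 and to Klf1 Mybpc1 at 0.52. Among the globins the nearest to Hba-x was Ptgs1 at 0.36 and to Hbb-y Sdf2l1 at 0.15.

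The gene closest to Hbb-bh1 was Hprt, at 0.27. Hprt, a purine salvage enzyme found in most cells, read 210 in Flk1+ MPCs, 2937 in sfPCBs, then 2669 in PCBs and 80.2 in M+CMs. The E14Tg2a stem cell line, one of those named in the study's methods, carries a disrupted Hprt gene, and which line the arrays used is not given in the labels. The part of RNA from cells other than the stem cell progeny in the Hbb-bh1 signal was not tested.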

How the data were processed

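Total RNA of 4 sorted populations was labelled with Cy3 and hybridised to 1-colour Agilent arrays on 1 slide, 1 array each. The authors deposited the scanner software's spot intensities (Feature Extraction 11.5.1.1, design annotated on mm9), with background-subtracted processed signals, errors and flags but no normalization between arrays, and a series table of log2 values that matched the unscaled processed signal. Controls and flagged spots were dropped. Signals of each array were multiplied to give a 75th percentile of 2198, and the brightest of the 39428 probes stood for each of the 33226 identifiers, of which 21715 had a symbol in the RefSeq table. A comparison covered identifiers well above background on at least 1 of its arrays, and a ratio of at least 2-fold was counted as measured, without an offset. A fold written as "at least" was set against the lowest well-above-background signal. Some list genes counted past 2-fold were undetected on 1 array and have bounds short of 2-fold. No test between populations was run, and p-values were not computed.

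The members and lists were chosen with earlier results of these data known. Of 142 listed genes, 139 were on the arrays. Named from the lists were up to 3 genes with the largest ratio in each direction and the sort markers. Spi1, Ikzf1, Epb42, Rhag, Ppbp, Hbb-bh2, Hbb-bs, Hbq1a, Hbq1b and the further Runx1 probe fall outside that rule. They were chosen after their values were seen. For each member the 3 nearest profiles by Euclidean distance were found, among curated RefSeq mRNAs, and at least the first is named. The counting step was checked on 1 simulated comparison of PCBs with sfPCBs over 39428 probes, with 200 changed 8-fold, of which 200 were recovered and 0 others called. It used noise far below 2-fold and treated every probe as detected. The check thus covers the arithmetic only and says nothing about dim signals. The 9 alternatives were quantile normalization, no scaling, median centring, normexp, an offset of 50, detection on both arrays, no detection filter, the mean over probes and the series table. R 4.3.3 with limma 3.58.1 and Python 3.11.15 with numpy 2.4.6, pandas 2.3.3 and matplotlib 3.10.9 were used.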

Additional observations from a re-analysis of the deposited data

How the results depend on the processing

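Of the 54 counts of members past 2-fold under the alternatives, 50 stayed within 1.5 times the main count. With normexp, an offset of 50 and quantile normalization, the count fell from 5 to 3 for sfPCBs against Flk1+ MPCs, from 5 to 3 for PCBs against sfPCBs and from 7 to 4 for M+CMs against Flk1+ MPCs. With an offset of 50 on the scaled signals, the last of these fell from 7 to 4. Both settings add a constant to every signal, which shrinks the ratios of dim genes. Of 470 member log2 ratios, 353 stayed within 1 error of the main value, 117 moved further, 85 of them to a smaller size, and 0 past 2-fold reversed. The settings that change detection alone reuse the main signals, so their 46 and 53 ratios could not move. The mean over probes could change Hbb-y only, and the series table repeats the unscaled signals. The tally therefore overstates how many ratios were put to a trial. Among members within 2-fold, Gata2, Klf1 and Runx1 changed sign in sfPCBs against Flk1+ MPCs without scaling, to 0.10, 0.14 and 0.15. Klf1 changed sign in M+CMs against Flk1+ MPCs with quantile normalization (-0.05) and normexp (-0.09), and in M+CMs against sfPCBs with normexp (-0.05). Over all identifiers compared between PCBs and sfPCBs, 6.62% were past 2-fold with normexp, against 13.8% in the main setting. No paired analysis was possible because each population had 1 array, and for the same reason no array could be left out. Hba-x was not well above background on 2 arrays and Gata1 on 1, so their ratios against those arrays are bounds.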

Other observations

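In M+CMs the partner factors and red cell effectors were divided, and a few genes of both lists were high. Of 23 partner factors compared, 6 were at least 2-fold higher and 8 lower in M+CMs against PCBs, and 4 higher and 11 lower against sfPCBs. Against Flk1+ MPCs, 3 of 22 were higher and 10 lower. Of 21 red cell effectors, 5 were higher and 5 lower against PCBs. Over all identifiers, 20.6% were higher and 15.3% lower against PCBs, 23.3% and 18.1% against sfPCBs, and 22.3% and 21.7% against Flk1+ MPCs. The genes named next are among the largest differences. Bcl11a, a repressor of embryonic and fetal globin genes, read 5147 in Flk1+ MPCs, 366 in sfPCBs, then 62.1 in PCBs and 3036 in M+CMs. Cbfa2t3, a corepressor found with Tal1, read 449, 361, 435 and 9769 in the same order. Sptb and Ank1, which encode spectrin and ankyrin chains of the red cell membrane skeleton and are also expressed in muscle, read 6442 and 1544 in M+CMs, against at most 33.4 and 29.5 in the other populations. Of 7 macrophage and leukocyte markers compared between PCBs and sfPCBs, 0 were at least 2-fold higher and 3 were lower in PCBs. Over all identifiers these shares were 6.19% and 7.61%.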
